A study of Mus musculus with 12 samples.

Results

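The data describe 40 genes of fatty acid uptake and beta-oxidation in mouse liver RNA, chosen by name as rows of the deposited expression table. All 40 were among its 24340 gene rows, and all 40 passed the filter on low values that left 10045 genes for testing. The 12 libraries form 4 groups of 3, all from livers of C57BL/6 mice from Taconic that had been fasted for 16 h. PPA_6h mice drank water with 3-phenylpropionic acid (PPA), an aromatic acid that intestinal bacteria can make, for 4 weeks, and their livers were taken 6 h after acetaminophen (APAP, 300 mg/kg, intraperitoneal), a pain reliever whose overdose damages the liver. CTL_6h mice drank plain water and had the same fast, APAP dose and interval. PPA_0h and CTL_0h mice had PPA water and plain water, and their livers were taken at 0 h. Whether the 0 h mice received an injection is not clear from the labels, and neither age nor sex is given. There was no 6 h group without APAP, so APAP, fasting or feeding during the 6 h and the hour of the day cannot be told apart. Each library is named by its group and replicate number.

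Fatty acids enter hepatocytes through membrane transporters, are tied to coenzyme A, and reach the mitochondrial matrix as carnitine esters. There, or in peroxisomes for very long and branched chains, repeated rounds of oxidation, hydration, oxidation and thiolysis shorten them to acetyl-CoA. In the fasted liver the nuclear receptor PPAR-alpha binds DNA with a retinoid X receptor partner and turns on many of these genes, and the acetyl-CoA feeds the citric acid cycle and ketone body synthesis.

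The deposited values are FPKM, that is, sequenced fragments scaled to transcript length and library size, so levels of different genes can be set side by side per length. Depth, estimated from the step that 1 fragment makes in low values, was 6890000 to 9880000 fragments in the 6 h libraries and 3190000 to 4970000 in the 0 h libraries, so depth moved with time. Libraries of a group correlated at r of 0.976 or more across genes, and no libraries held identical values. Summed levels of 8 hepatocyte markers lay between 60897 and 99512 FPKM in all 12 libraries. No label says that the libraries are from different mice, so the p-values reflect only how these samples vary. In bulk liver, fewer cells of a type and less RNA per cell cannot be told apart.

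PPAR-alpha and its partner recognise the DR1 element, the motif AGGTCA repeated in the same direction after a spacer of 1 base. Promoter windows of 250 bases before to 50 after the start were given by RefSeq, build GRCm38.p6, for 31 of the 40 genes, and for none of Abcd2, Acaa2, Cpt1b, Angptl4, Pex19, Crat, Vnn1, Hsd17b4 and Decr1. With up to 2 mismatches in the 12 fixed bases, on either strand, 5 of the 31 genes held a match (16.1%), against 1190 of 27025 genes in the whole table (4.4%). With 1 mismatch allowed it was 1 member, Fabp1 (3.23%), against 0.644% of all genes, and no member held an exact match. These 5 windows are shown because they carry the only matches in the members' windows, with the match in capitals. Sequence outside the windows was not scanned, so a member without a match here may still hold an element elsewhere. They lie at chr6:71199629-71199928 (plus strand, Fabp1), chr5:17835847-17836146 (minus strand, Cd36), chr9:108661886-108662185 (plus strand, Slc25a20), chr9:55512194-55512493 (minus strand, Etfa) and chr10:81092542-81092841 (minus strand, Creb3l3). Creb3l3 also has an upstream window, at chr10:81098823-81099122 (minus strand), which held no match and had 4 mismatches at best.
Fabp1: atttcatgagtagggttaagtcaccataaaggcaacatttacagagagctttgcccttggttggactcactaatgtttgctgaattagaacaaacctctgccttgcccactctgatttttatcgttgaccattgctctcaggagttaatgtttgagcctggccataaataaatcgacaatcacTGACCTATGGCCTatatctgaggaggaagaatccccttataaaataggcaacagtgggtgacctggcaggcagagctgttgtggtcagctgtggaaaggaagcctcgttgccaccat
Cd36: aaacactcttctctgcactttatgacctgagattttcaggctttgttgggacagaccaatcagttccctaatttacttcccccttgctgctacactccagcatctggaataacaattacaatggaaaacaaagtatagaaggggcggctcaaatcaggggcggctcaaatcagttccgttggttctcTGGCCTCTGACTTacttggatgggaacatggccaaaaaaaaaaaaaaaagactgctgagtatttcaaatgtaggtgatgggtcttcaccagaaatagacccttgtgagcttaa
Slc25a20: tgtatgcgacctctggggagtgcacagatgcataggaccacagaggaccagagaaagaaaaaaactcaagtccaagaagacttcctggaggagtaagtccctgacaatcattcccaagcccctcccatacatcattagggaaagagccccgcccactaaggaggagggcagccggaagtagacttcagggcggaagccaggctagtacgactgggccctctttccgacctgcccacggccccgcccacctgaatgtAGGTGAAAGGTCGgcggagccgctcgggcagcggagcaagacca
Etfa: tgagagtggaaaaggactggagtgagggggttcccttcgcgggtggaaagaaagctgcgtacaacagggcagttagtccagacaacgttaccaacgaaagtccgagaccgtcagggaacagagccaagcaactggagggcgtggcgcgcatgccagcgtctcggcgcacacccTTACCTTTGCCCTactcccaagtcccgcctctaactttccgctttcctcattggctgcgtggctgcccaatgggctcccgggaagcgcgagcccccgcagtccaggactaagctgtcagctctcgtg
Creb3l3: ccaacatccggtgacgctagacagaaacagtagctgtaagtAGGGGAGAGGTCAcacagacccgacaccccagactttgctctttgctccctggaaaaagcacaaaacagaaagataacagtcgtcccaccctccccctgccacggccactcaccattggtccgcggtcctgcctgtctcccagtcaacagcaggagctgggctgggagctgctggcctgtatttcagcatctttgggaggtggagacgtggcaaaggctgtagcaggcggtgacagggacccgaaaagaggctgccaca
The Fabp1 match ran from base -67 to -55 relative to the start, the Cd36 match from -63 to -51 and the Etfa match from -77 to -65, all 3 on the opposite strand. The Slc25a20 match lay just after the start, at bases 7 to 19, and the Creb3l3 match at -209 to -197. Between 0 h and 6 h on PPA water, their log2 changes, described by role below, were -1.28 ± 0.27 for Cd36, -0.83 ± 0.18 for Slc25a20, -0.47 ± 0.16 for Creb3l3, -0.33 ± 0.40 for Fabp1 and -0.28 ± 0.11 for Etfa (SE).

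The members span a wide range of levels. In CTL_0h livers, means ran from 9958 FPKM for Fabp1, the cytosolic fatty acid binding protein of liver, and 2406 FPKM for the peroxisomal thiolase Acaa1b to 2.77 FPKM for Cpt1b and 1.88 FPKM for the peroxisomal transporter Abcd2. Acaa1b and its neighbour copy Acaa1a share sequence: of the 50-base words of the longest Acaa1b transcript, 35.5% also occur in Acaa1a transcripts, so the split of reads between both genes is uncertain. Cpt1a and Cpt1b shared no 50-base word.

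**Figure D1:**
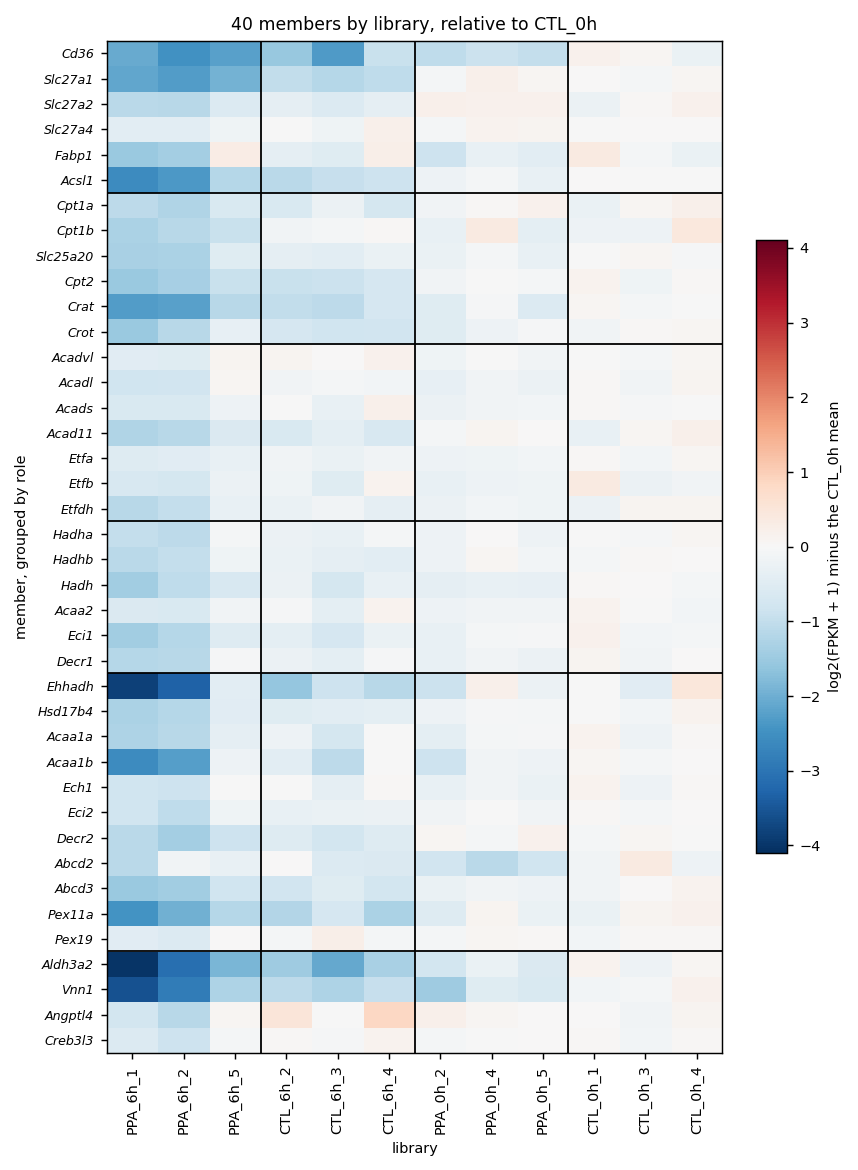
Heat map of the 40 members (rows, grouped by role as in the text) in the 12 libraries (columns), as log2(FPKM + 1) minus the mean of the 3 CTL_0h libraries, with lower levels in blue and higher levels in red. The columns PPA_6h_1 and PPA_6h_2 are the darkest blue for most rows, while PPA_6h_5 resembles the CTL_6h columns in most rows and is as pale as the 0 h columns in some.

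The first question was how these genes differed 6 h after APAP from 0 h. On PPA water 27 of the 40 members fell and none rose, and on plain water 11 fell and none rose (limma, adjusted p under 0.05 over 10045 genes). The background differed little between the waters: 13.3% of all tested genes fell and 15% rose on PPA water, against 11.8% falling and 15.2% rising on plain water. The median log2 change of the members was -0.74 on PPA water, where that of all genes was 0.00, and -0.37 on plain water, where that of all genes was -0.01. All 11 members that fell on plain water also fell on PPA water, 16 fell past the test on PPA water alone, and 13 passed it on neither. In each water 22 members had 6 h libraries that all lay below all 0 h libraries, against 23.1% of all genes on PPA water and 18.6% on plain water. Among the 27 members called on PPA water, the groups of Crot, Hadha, Hadhb, Ehhadh, Acaa1a and Vnn1 overlapped. Under every alternative run, 18 of the 27 calls on PPA water and 6 of the 11 on plain water were kept. The 9 lost on PPA water were Slc27a4, Crot, Etfdh, Hadha, Hadhb, Ehhadh, Acaa1a, Eci2 and Creb3l3, all 9 of them without any 1 of PPA_6h_1, PPA_6h_2, PPA_0h_4 or PPA_0h_5, which left 18 members. The 5 lost on plain water were Acsl1, Crat, Crot, Acad11 and Pex11a, all 5 of them without CTL_6h_2, which left 6 members, where 7.27% of all genes fell. Without PPA_6h_5 the counts were 37 on PPA water and 20 on plain water, where 10.6% and 12.3% of all genes fell. PPA_6h_5 is in neither plain-water group, and the plain-water median stayed at -0.37 without it. It enters that comparison only through the spread that the fit shares over all groups, so the count of 11 also depends on that spread.

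Markers of the hepatocytes around the central vein, where acetaminophen is mainly activated, also moved with time. Summed over 10 genes, they were at 1958 to 2425 FPKM in PPA_6h and 2206 to 3659 FPKM in CTL_6h livers, against 6709 to 7223 FPKM in PPA_0h and 6506 to 7649 FPKM in CTL_0h livers. Markers of the hepatocytes around the portal vein summed to 5237 to 6357 FPKM in PPA_6h and 6171 to 6814 FPKM in CTL_6h livers, against 6015 to 6587 FPKM in PPA_0h and 5141 to 6139 FPKM in CTL_0h livers. This sum joins markers that moved in opposite directions. Pck1 averaged 736 and 1866 FPKM in PPA_6h and PPA_0h livers, and 1119 and 1713 FPKM in CTL_6h and CTL_0h livers. In the same order, Ass1 averaged 1164 and 824 FPKM, and 1046 and 882 FPKM. Neutrophil markers, 9 of 10 with rows, summed to 17.3 to 24.4 FPKM in PPA_6h and 11.8 to 54.3 FPKM in CTL_6h livers, against 0.42 to 4.11 FPKM in PPA_0h and 1.14 to 2.95 FPKM in CTL_0h livers. Cholangiocyte markers summed to 27.5 to 46.9 FPKM in PPA_6h and 20.5 to 55.7 FPKM in CTL_6h livers, against 15.3 to 20.6 FPKM in PPA_0h and 14.7 to 19.4 FPKM in CTL_0h livers. Most of these sums was Sox9 and Spp1, with means of 11.3 and 18.9 FPKM in PPA_6h and 2.37 and 9.74 FPKM in PPA_0h livers. On plain water they were at 16.8 and 18.9 FPKM in CTL_6h and 2.28 and 11.8 FPKM in CTL_0h livers. Krt19 had means of 1.81 and 2.92 FPKM in PPA_6h and PPA_0h, and 1.51 and 1.25 FPKM in CTL_6h and CTL_0h livers. The other cholangiocyte markers averaged at most 1.51 FPKM in any group. The part of these markers in the changes of the members was not tested.

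Among genes of uptake and activation, 5 of 6 fell on PPA water and 3 of 6 on plain water. Slc27a1, a fatty acid transport protein best known from muscle and fat, had the lowest adjusted p of all members. It was at 4.02, 3.44 and 4.67 FPKM in PPA_6h livers, against 19.9, 24.5 and 22.3 FPKM in PPA_0h livers (log2 change -2.20 ± 0.12 SE, adjusted p = 9.42e-08 in limma). It was at 9.83, 8.70 and 9.56 FPKM in CTL_6h livers, against 21.0, 19.8 and 21.9 FPKM in CTL_0h livers (-1.08 ± 0.12, adjusted p = 5.5e-05 in limma). Neither pair of groups overlapped, and the PPA_6h libraries were the lowest of all 12. Cd36, the scavenger receptor that takes up long-chain fatty acids, also fell in both waters. It was at 2.05, 1.29 and 1.70 FPKM in PPA_6h livers, against 5.15, 5.86 and 5.43 FPKM in PPA_0h livers (-1.28 ± 0.27, adjusted p = 0.00403 in limma). In plain water it was at 3.36, 1.56 and 5.82 FPKM in CTL_6h livers, against 13.3, 12.6 and 9.65 FPKM in CTL_0h livers (-1.59 ± 0.27, adjusted p = 0.00109 in limma).

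Acsl1, the main long-chain acyl-CoA synthetase of liver, was at 68.1, 80.6 and 184 FPKM in PPA_6h livers, against 361, 394 and 338 FPKM in PPA_0h livers (-1.85 ± 0.27, adjusted p = 0.000356 in limma). In plain water it was at 193, 216 and 229 FPKM in CTL_6h livers, against 422, 411 and 416 FPKM in CTL_0h livers (-0.97 ± 0.27, adjusted p = 0.0177 in limma). All 6 h libraries lay below all 0 h libraries of their water. Slc27a2, which takes up fatty acids and activates very long chains, and Slc27a4 fell on PPA water alone (-1.12 ± 0.16 and -0.41 ± 0.12), with values on plain water of -0.43 ± 0.16 (adjusted p = 0.064 in limma) and 0.00 ± 0.12. Fabp1 did not pass the test in either water, with changes of -0.33 ± 0.40 on PPA water and -0.22 ± 0.40 on plain water.

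The carnitine shuttle fell as a whole on PPA water, with 6 of 6 genes past the test, against 3 of 6 on plain water. Cpt1a, the liver's gatekeeper enzyme that makes acylcarnitines at the outer membrane, was at 63.9, 56.1 and 87.4 FPKM in PPA_6h livers, against 123, 140 and 151 FPKM in PPA_0h livers (-1.0 ± 0.19, adjusted p = 0.00188 in limma). In plain water it was at 86.3, 114 and 80.5 FPKM in CTL_6h livers, against 110, 141 and 157 FPKM in CTL_0h livers, groups that overlapped (-0.53 ± 0.19, adjusted p = 0.0519 in limma). Cpt2, which turns acylcarnitines back into acyl-CoA inside the mitochondrion, fell in both waters (-1.19 ± 0.15 on PPA water and -0.83 ± 0.15 on plain water). So did the acetyl-carnitine enzyme Crat (-1.52 ± 0.25 and -0.93 ± 0.25) and the peroxisomal acyl-carnitine enzyme Crot (-0.74 ± 0.23 and -0.77 ± 0.23). The carnitine carrier Slc25a20 fell on PPA water (-0.83 ± 0.18), with -0.36 ± 0.18 on plain water (adjusted p = 0.164 in limma). Cpt1b, the isoform of muscle, was low throughout, at 0.513, 0.663 and 0.970 FPKM in PPA_6h livers against 1.97, 3.73 and 1.82 FPKM in PPA_0h livers (-1.0 ± 0.22, adjusted p = 0.00541 in limma). On plain water its change was -0.06 ± 0.22.

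The mitochondrial acyl-CoA dehydrogenases, which take the first oxidation step, and the flavoproteins that receive their electrons had the smallest median changes of the roles, -0.32 on PPA water and -0.17 on plain water. On PPA water 2 of 7 fell, and on plain water 1 of 7. Acad11, a dehydrogenase of long chains, fell in both (-1.0 ± 0.17 and -0.57 ± 0.17), and Etfdh, which passes the electrons to ubiquinone, fell on PPA water (-0.62 ± 0.19). The dehydrogenases of very long, long and short chains, Acadvl, Acadl and Acads, had changes between -0.33 and -0.18 on PPA water and between -0.11 and 0.10 on plain water, none past the test. The electron transfer flavoprotein subunits Etfa and Etfb had -0.28 ± 0.11 and -0.32 ± 0.20 on PPA water, also short of it.

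Of the mitochondrial enzymes of the later steps, 4 of 6 fell on PPA water and none on plain water. On plain water Hadh and Eci1 had an unadjusted p under 0.05, as did 17 of all 40 members and 39.1% of all genes. Both subunits of the trifunctional protein fell on PPA water, Hadha by 0.58 and Hadhb by 0.67 on the log2 scale, with groups that overlapped. Hadh, the dehydrogenase of medium and short hydroxyacyl chains, fell by 0.70 and the enoyl-CoA isomerase Eci1 by 0.89. Eci1 was at 139, 164 and 257 FPKM in PPA_6h livers, against 300.3, 352 and 357 FPKM in PPA_0h livers. The thiolase Acaa2 (-0.29 ± 0.16) and the dienoyl-CoA reductase Decr1 (-0.55 ± 0.23) did not pass the test.

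Of the 11 peroxisomal genes, 7 fell on PPA water and 3 on plain water. Decr2, the peroxisomal dienoyl-CoA reductase, was at 66.0, 54.5 and 79.7 FPKM in PPA_6h livers, against 152, 136 and 164 FPKM in PPA_0h livers (-1.17 ± 0.14, adjusted p = 8e-05 in limma). It was at 99.0, 84.6 and 98.2 FPKM in CTL_6h livers, against 137, 151 and 143 FPKM in CTL_0h livers (-0.61 ± 0.14, adjusted p = 0.00651 in limma). Groups did not overlap in either water. Abcd3, the main transporter of the peroxisome membrane, fell in both (-1.05 ± 0.17 and -0.69 ± 0.17), as did Pex11a, which drives peroxisome division (-1.64 ± 0.29 and -1.06 ± 0.29). The bifunctional enzymes Ehhadh (-2.23 ± 0.65) and Hsd17b4 (-0.86 ± 0.18), the thiolase Acaa1a (-0.74 ± 0.23) and the isomerase Eci2 (-0.59 ± 0.17) passed the test on PPA water alone. On plain water their changes were, in this order, -1.20 ± 0.65, -0.435 ± 0.178, -0.32 ± 0.23 and -0.28 ± 0.17. The groups of Ehhadh overlapped on PPA water but not on plain water. Acaa1b missed the threshold on PPA water (-1.29 ± 0.48, adjusted p = 0.0604 in limma). Ech1, Pex19 and Abcd2 had -0.33 ± 0.20, -0.35 ± 0.15 and 0.38 ± 0.26 on PPA water, none past it.

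Of the 4 further genes that PPAR-alpha is known to induce, Aldh3a2, which oxidises fatty aldehydes, fell furthest of all members. It was at 13.3, 26.7 and 62.3 FPKM in PPA_6h livers, against 138, 193 and 153 FPKM in PPA_0h livers (-2.46 ± 0.40, adjusted p = 0.000779 in limma). In plain water it was at 84.8, 53.0 and 92.5 FPKM in CTL_6h livers, against 256, 200.1 and 245 FPKM in CTL_0h livers (-1.63 ± 0.40, adjusted p = 0.00959 in limma). The pantetheinase Vnn1 fell on PPA water (-1.71 ± 0.44), with -1.10 ± 0.44 on plain water (adjusted p = 0.0793 in limma). Creb3l3, a transcription factor of the fasting liver, fell on PPA water (-0.47 ± 0.16). The secreted lipase inhibitor Angptl4 had changes of opposite sign, -0.70 ± 0.27 on PPA water and 0.45 ± 0.27 on plain water, neither past the test.

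**Figure D2:**
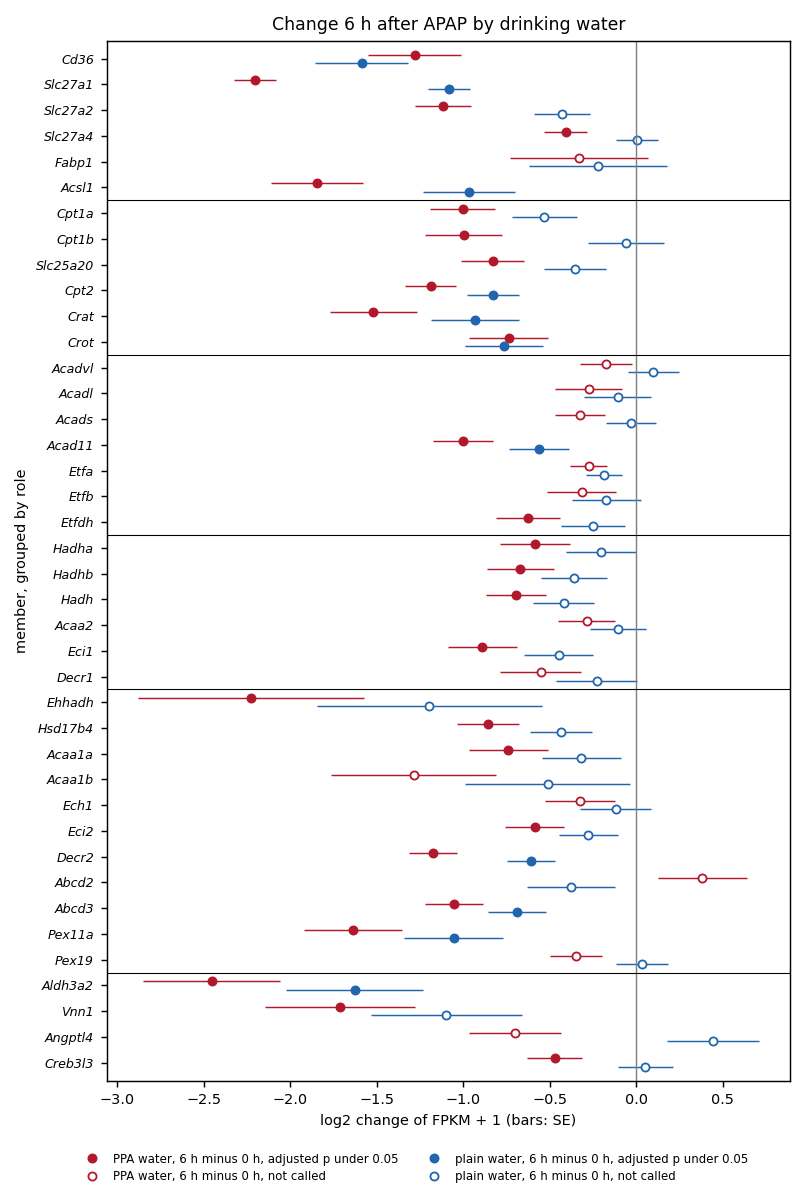
Log2 change of FPKM + 1 from 0 h to 6 h for each member (rows, grouped by role), on PPA water in red and on plain water in blue, with SE as bars and filled points for adjusted p under 0.05. The red points lie left of the blue ones for 37 of 40 members, and no filled point lies right of 0.

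The difference between these responses was tested as the interaction of water and time. No member passed that test in limma, where 0.00996% of all genes passed it in the lower direction. The median over the members was -0.40, beside -0.02 over all genes, and 37 of 40 values were negative. At an unadjusted p under 0.05 there were 8 members, against 9.26% of all genes. The lowest adjusted p among the members belonged to Slc27a1 (-1.12 ± 0.17, adjusted p = 0.0962 in limma). Calls on PPA water alone, above, therefore do not show a difference between the waters. Without PPA_6h_5 the interaction called Slc27a1 and Acsl1, and without CTL_6h_3 Slc27a1, where 0.11% and 0.329% of all genes passed in the lower direction.

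The second question was how PPA water differed from plain water at 6 h. Every one of the 40 members was lower on average in PPA_6h than in CTL_6h livers, where 5423 of 10045 genes were, although Crot was not without PPA_6h_1 and Abcd2 was not without PPA_6h_1 or without CTL_6h_2. The median log2 difference over the members was -0.54 beside -0.02 over all genes. Only Slc27a1 fell past the test, where 0.0796% of all genes fell and 0.0597% rose. At an unadjusted p under 0.05 there were 32 members, against 14.9% of all genes. Slc27a1 averaged 4.04 ± 0.616 FPKM in PPA_6h and 9.36 ± 0.586 FPKM in CTL_6h livers (SD, n = 3 each; log2 difference -1.04 ± 0.12 SE, adjusted p = 0.00667 in limma). The groups did not overlap, and the adjusted p was between 0.00178 and 0.0453 with each library left out. The call was lost under 2 of 25 alternatives, 1 of which fitted only the 6 libraries compared (adjusted p = 0.094 in limma), and the range over all alternatives was 2.99e-05 to 0.094.

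For 11 members all PPA_6h libraries lay below all CTL_6h libraries, against 8.61% of all genes, and for none all above, against 6.59%. They were Slc27a1, Slc27a2, Slc27a4 and Acsl1 of uptake, Cpt1b, Slc25a20 and Crat of the shuttle, Etfa, Decr2, Abcd3 and Creb3l3. Cpt1b was at 0.513, 0.663 and 0.970 FPKM in PPA_6h livers, against 2.31, 2.50 and 2.80 FPKM in CTL_6h livers (-1.05 ± 0.22, adjusted p = 0.103 in limma). Library CTL_6h_4 carried skeletal muscle RNA, with a summed level of 15 muscle markers of 156 FPKM, against at most 1.98 FPKM in the other libraries. Its Cpt1b was the highest of the 3 CTL_6h values, and without it the change of Cpt1b was -1.0. Slc25a20 was at 61.6, 62.3 and 109 FPKM in PPA_6h livers, against 121, 116 and 129 FPKM in CTL_6h livers (-0.69 ± 0.18, adjusted p = 0.151 in limma). Slc27a2 had -0.50 ± 0.16 and Decr2 -0.50 ± 0.14, with adjusted p of 0.207 and 0.171 in limma.

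By role, median differences at 6 h were -0.66 for uptake and activation, -0.57 for the carnitine shuttle, -0.40 for dehydrogenases and electron transfer, -0.53 for the later mitochondrial steps, -0.54 for peroxisomal genes and -1.21 for the associated targets. The 4 largest mean differences had groups that overlapped. Vnn1 had -1.47 ± 0.44, Aldh3a2 -1.37 ± 0.40, Ehhadh -1.33 ± 0.65 and Acaa1b -1.17 ± 0.48. Angptl4 was at 81.1, 62.1 and 144 FPKM in PPA_6h livers, against 196, 135 and 249 FPKM in CTL_6h livers (-1.05 ± 0.27, adjusted p = 0.144 in limma).

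**Figure D3:**
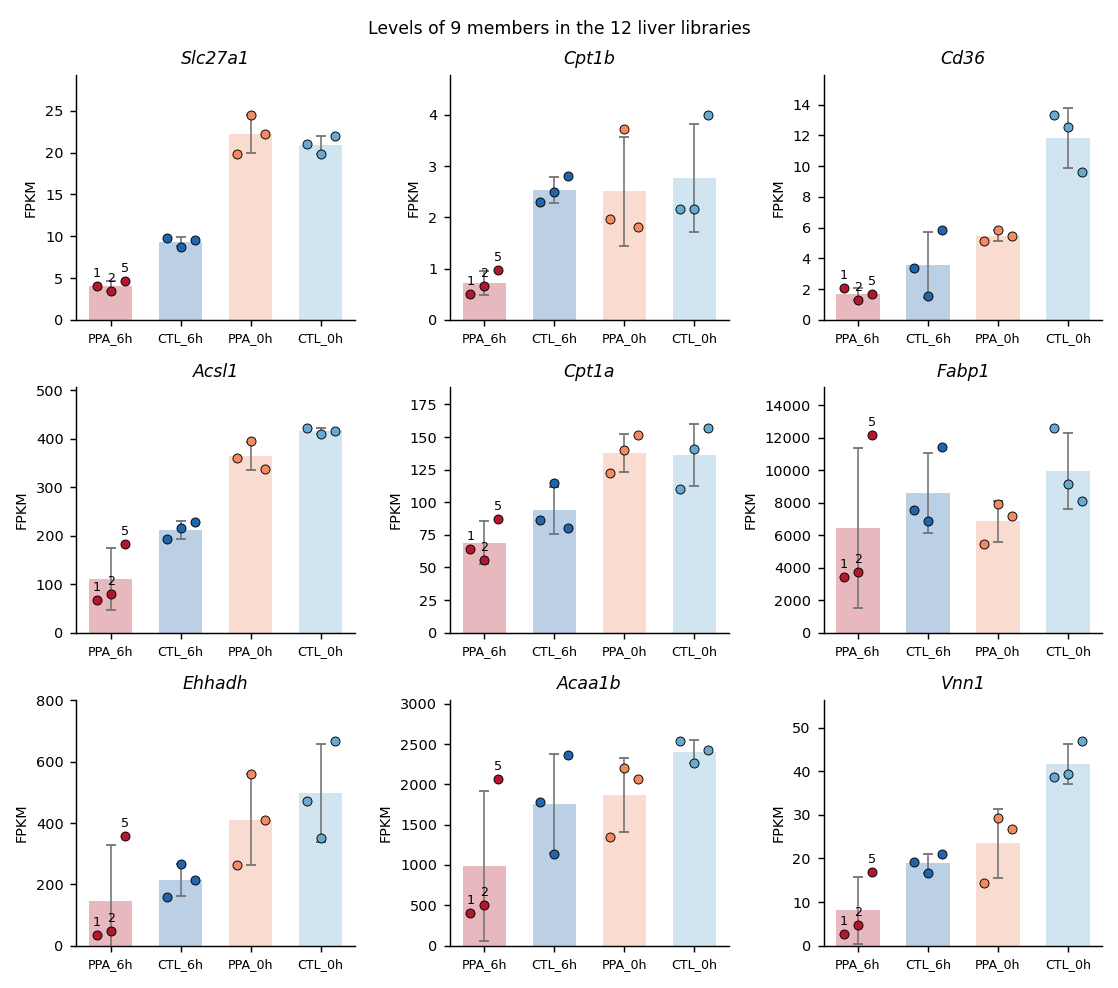
FPKM of 9 members in the 12 libraries (points), with group means as bars and SD as error bars (n = 3 each; the lower end of an SD that passes 0 is not drawn), and PPA_6h points labelled by replicate number. Slc27a1 and Cpt1b were low in all 3 PPA_6h libraries, while Fabp1, Ehhadh and Acaa1b were low in PPA_6h_1 and PPA_6h_2 and at 12146, 357 and 2064 FPKM in PPA_6h_5.

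At 0 h, PPA water made no call among the members, where 0.00996% of all genes fell and 0.0199% rose in limma. The median log2 difference was -0.17 beside -0.01 over all genes. For 14 members all PPA_0h libraries lay below all CTL_0h libraries, against 7.95% of all genes, and for none all above, against 6.57%. Only Cd36 and Abcd2 had an unadjusted p under 0.05, against 6.79% of all genes. Cd36 was at 5.15, 5.86 and 5.43 FPKM in PPA_0h livers, against 13.3, 12.6 and 9.65 FPKM in CTL_0h livers (-0.98 ± 0.27, adjusted p = 0.489 in limma). Abcd2, which carries very long-chain acyl-CoA into peroxisomes, was at 0.631, 0.333 and 0.624 FPKM in PPA_0h livers, against 1.59, 2.63 and 1.43 FPKM in CTL_0h livers (-0.90 ± 0.26, adjusted p = 0.489 in limma). Such low levels rest on few fragments at the depth of the 0 h libraries. Vnn1 was at 14.4, 29.2 and 26.8 FPKM in PPA_0h livers, against 38.6, 39.4 and 47.0 FPKM in CTL_0h livers (-0.86 ± 0.44, adjusted p = 0.754 in limma). The 0 h and 6 h comparisons of the waters share no libraries, but each shares its libraries with the time comparisons.

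The 3 PPA_6h libraries differed among themselves. PPA_6h_5 was the highest of the 3 for 38 of the 40 members, against 40.3% of all genes, and the lowest for none. The exceptions were Cd36, highest in PPA_6h_1, and Abcd2, highest in PPA_6h_2. PPA_6h_1 was lowest for 26 members and PPA_6h_2 for 14. For 22 members PPA_6h_5 was at least 1.5-fold above both other libraries, against 2.57% of all genes, while neither PPA_6h_1 nor PPA_6h_2 stood so for any member, where 0.538% and 1.35% of all genes did. The ratio of the highest to the middle library ran from 1.12 for Etfa to 7.59 for Ehhadh, with a median of 1.56, and the median ratio of the middle to the lowest was 1.11. These are descriptions of single libraries, with no test.

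Set against the CTL_6h mean, the members' median log2 difference was -0.76 in PPA_6h_1, -0.74 in PPA_6h_2 and -0.08 in PPA_6h_5. Below all 3 CTL_6h libraries were 39 members in PPA_6h_1, where 29.7% of all genes were, 39 in PPA_6h_2, where 32.9% were, and 11 in PPA_6h_5, where 22% were. Above all 3 were 7 members in PPA_6h_5, where 21.3% of all genes were, and none in PPA_6h_1 or PPA_6h_2, where 23.3% and 26.9% of all genes were. Set against the PPA_0h mean, the medians were -1.08, -0.99 and -0.17, with 40, 39 and 22 members below all 3 PPA_0h libraries, where 36.3%, 35.4% and 37% of all genes were. On average over the members, log2(FPKM + 1) was 5.85 in PPA_6h_1, 5.95 in PPA_6h_2 and 6.74 in PPA_6h_5, against 6.70 to 6.93 in CTL_6h libraries. It was 6.94 to 7.18 in PPA_0h and 7.22 to 7.33 in CTL_0h libraries.

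The 5 members with the widest ratios were Ehhadh, Acaa1b, Vnn1, Fabp1 and Aldh3a2, from 7.59 down to 2.33. Ehhadh, the peroxisomal bifunctional enzyme, was at 33.1, 47.1 and 357 FPKM in PPA_6h livers, against 159, 265 and 215 FPKM in CTL_6h livers. Thus PPA_6h_1 and PPA_6h_2 lay below, and PPA_6h_5 above, every CTL_6h library. Acaa1b was at 402, 504 and 2064 FPKM in PPA_6h livers, against 1775, 1139 and 2366 FPKM in CTL_6h livers. Fabp1 was at 3428, 3741 and 12146 FPKM in PPA_6h livers, against 7531, 6884 and 11433 FPKM in CTL_6h livers, again with PPA_6h_5 above them all. Vnn1 was at 2.58, 4.77 and 16.8 FPKM in PPA_6h livers, against 19.2, 16.6 and 21.0 FPKM in CTL_6h livers, with PPA_6h_5 inside the CTL_6h range. Crat was at 7.28, 7.63 and 17.2 FPKM in PPA_6h livers, against 18.9, 18.1 and 24.0 FPKM in CTL_6h livers, and Crot at 77.8, 100.4 and 176 FPKM in PPA_6h livers, against 138, 126 and 129 FPKM in CTL_6h livers. Genes of the mitochondrial steps were also highest in PPA_6h_5. Hadha was at 69.9, 65.5 and 130 FPKM in PPA_6h livers, against 118, 113 and 129 FPKM in CTL_6h livers. Acadl was at 78.2, 78.9 and 145 FPKM in PPA_6h livers, against 126, 130 and 127 FPKM in CTL_6h livers. Slc27a1 and Cpt1b were below every CTL_6h library in all 3 PPA_6h libraries, with ratios of the highest to the middle one of 1.16 and 1.46. Cd36 had a ratio of 1.21, and its PPA_6h_1 and PPA_6h_5 values lay above the lowest CTL_6h value.

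**Figure D4:**
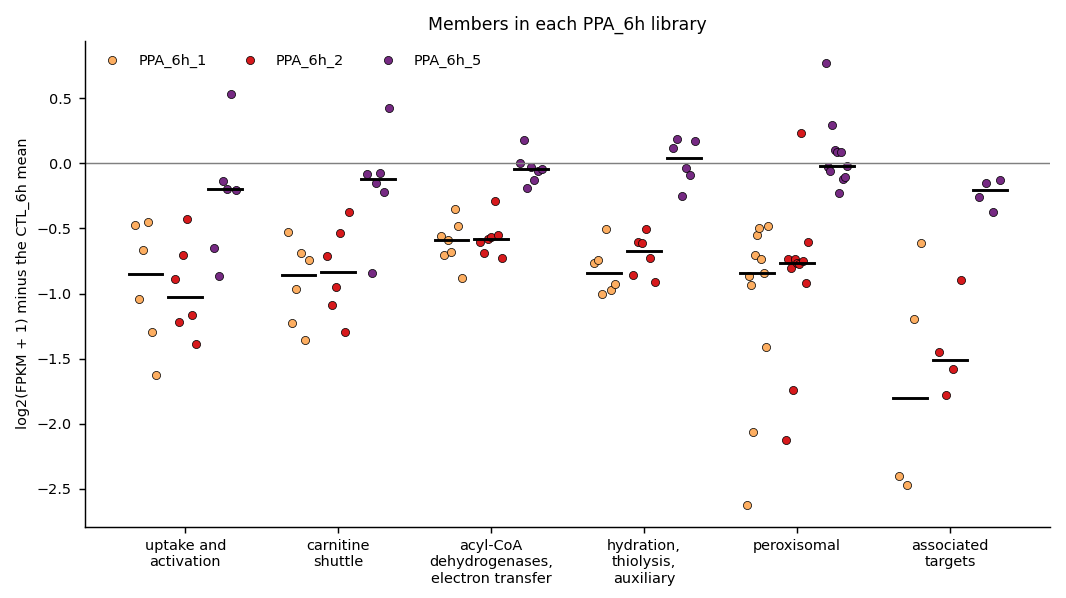
Difference of log2(FPKM + 1) from the CTL_6h mean for each member (points) in the 3 PPA_6h libraries, by role, with the median of each role as a black line. PPA_6h_1 and PPA_6h_2 lie below 0 for every role's median, between -1.80 and -0.58, and PPA_6h_5 lies between -0.21 and 0.04.

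Some measures of the libraries moved with this difference. PPA_6h_5 had 7600000 estimated fragments, against 9050000 in PPA_6h_1 and 8900000 in PPA_6h_2, and its FPKM summed to 712332, against 646269 and 593025. The 8 hepatocyte markers summed to 76321 FPKM in PPA_6h_5, against 70707 and 60897 FPKM. Other lists were lowest in PPA_6h_5: periportal hepatocyte markers summed to 6357, 5993 and 5237 FPKM in PPA_6h_1, PPA_6h_2 and PPA_6h_5, Kupffer cell markers to 196, 214 and 146 FPKM, endothelial markers to 77.3, 65.7 and 60.2 FPKM, and cholangiocyte markers to 34.1, 46.9 and 27.5 FPKM. Neutrophil markers were at 19.2, 17.3 and 24.4 FPKM. Pericentral hepatocyte markers summed to 1958, 2425 and 2195 FPKM and stellate cell markers to 127, 120 and 126 FPKM, neither lowest in PPA_6h_5. The median log2(FPKM + 1) over all tested genes was 2.94, 2.93 and 2.93 in PPA_6h_1, PPA_6h_2 and PPA_6h_5. Of the adipocyte markers, 10 of 10 with rows, the summed level was 110, 59.1 and 180 FPKM in these libraries, against 165 to 188 FPKM in CTL_6h. Adipoq and Lep, which define fat cells, were listed at 0 in all 3 PPA_6h libraries, but Lep was at 0 in all 12 libraries. Adipoq was also at 0 in all CTL_0h libraries, at most at 0.2525 FPKM in CTL_6h, and at 4.54, 0.937 and 0.769 FPKM in PPA_0h. PPA_0h_2 also had the highest Retn (5.04 FPKM), Cfd (44.35 FPKM) and Fabp4 (52.6 FPKM) of all 12 libraries. Cidec, a lipid droplet protein that steatotic hepatocytes also make, was at 18.8, 4.96 and 78.9 FPKM in PPA_6h_1, PPA_6h_2 and PPA_6h_5. The part of depth, the FPKM sum and these markers in the difference was not tested. Leaving out each of the 12 libraries in turn, the count of members lower in PPA_6h than in CTL_6h stayed at 1 except without PPA_6h_5, when it was 32, where 2.56% of all genes fell, and without CTL_6h_3, when it was 9, where 4.83% fell. No label sets either library apart. The 8 members not called without PPA_6h_5 were Cd36, Slc27a4, Cpt1a, Crot, Etfa, Etfb, Acaa2 and Abcd2.

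Neighbouring parts of the pathway were read from lists of named genes. Of 31 tested genes of fatty acid oxidation that are not among the 40, 16 fell and 4 rose with time on PPA water, and 6 fell and 2 rose on plain water. Of all tested genes, 13.3% fell and 15% rose on PPA water, and 11.8% fell and 15.2% rose on plain water. Amacr, the racemase of branched chains, and Hacl1, the lyase of their alpha-oxidation, fell in both waters (Amacr -0.94 ± 0.11 and -0.69 ± 0.11, Hacl1 -1.57 ± 0.26 and -0.99 ± 0.26). On plain water the call of Hacl1 was lost without CTL_6h_2 (adjusted p = 0.0585 in limma). Acsl4, a synthetase that prefers arachidonic acid, rose in both (1.33 ± 0.21 and 0.89 ± 0.21). Acadm, the medium-chain dehydrogenase, did not pass the test in any comparison, with -0.53 ± 0.20 on PPA water and -0.35 ± 0.20 on plain water. Of 17 tested genes of peroxisome biogenesis and its matrix, 8 fell in each water and none rose, among them the import receptor Pex5, the catalase gene Cat and the protease Lonp2. Of 19 citric acid cycle and pyruvate dehydrogenase genes, 7 fell and 1 rose on PPA water, against none falling and 1 rising on plain water.

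Of 29 regulators, 8 fell and 1 rose on PPA water, and 5 fell and 5 rose on plain water. The shares of all tested genes were 13.3% falling and 15% rising on PPA water, and 11.8% and 15.2% on plain water. Ppara itself was at 8.31, 13.2 and 9.24 FPKM in PPA_6h livers, against 28.3, 30.8 and 29.6 FPKM in PPA_0h livers (-1.46 ± 0.18, adjusted p = 0.000112 in limma). It was at 7.50, 11.8 and 8.88 FPKM in CTL_6h livers, against 24.9, 33.0 and 28.6 FPKM in CTL_0h livers (-1.53 ± 0.18, adjusted p = 7.55e-05 in limma). The groups of each water did not overlap, the waters at 6 h overlapped (0.11 ± 0.18, adjusted p = 0.798 in limma), and PPA_6h_5 was not the highest PPA_6h library. Klf15, a glucocorticoid-induced factor, and the mitochondrial deacetylase Sirt3 fell in both waters, and the deacetylase Sirt1 rose in both. The coactivator Ppargc1a passed the test in no comparison, with means of 0.746 FPKM in PPA_6h and 1.24 FPKM in CTL_6h livers.

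None of the 4 neighbouring lists held a call between the waters at 0 h or 6 h or in the interaction. Their medians at 6 h were -0.32 for other fatty acid oxidation, -0.09 for peroxisome biogenesis, -0.12 for regulators and -0.19 for the citric acid cycle, beside -0.54 for the 40 members. Outside these lists, the PPAR-alpha target Pdk4, the kinase that shuts pyruvate dehydrogenase in fasting, was lower in PPA_6h than in CTL_6h livers. At 0 h Pdk4 was at 6.16, 2.40 and 2.61 FPKM in PPA_0h livers, against 6.22, 6.94 and 6.19 FPKM in CTL_0h livers. It was at 2.27, 3.99 and 3.75 FPKM in PPA_6h livers, against 10.5, 9.25 and 12.7 FPKM in CTL_6h livers (-1.46 ± 0.25, adjusted p = 0.0483 in limma), with no overlap. Over the alternatives its adjusted p ran from 0.000251 to 0.269, and the call was lost under 20 of 25 alternatives, among them leaving out any 1 of PPA_6h_1, PPA_6h_2, CTL_6h_2 or CTL_6h_4, another pseudocount and a fit of only the groups compared. The hormone gene Fgf21 was at 10.0, 12.1 and 78.4 FPKM in PPA_6h livers, against 110, 62.2 and 65.2 FPKM in CTL_6h livers (-1.78 ± 0.59, adjusted p = 0.209 in limma). Its PPA_6h_5 value stood 6.46-fold above the next PPA_6h library.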

How the data were processed

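Liver RNA was sequenced in 12 libraries, 3 in each of PPA_6h, CTL_6h, PPA_0h and CTL_0h, grouped by the labels. The authors deposited 1 table of FPKM per gene and library. The submitters' processing notes name build mm10 and the tools Cuffdiff 2.1.1, Cufflinks, HISAT2 2.1.0 and SAMtools 0.1.18-r580. The annotation and the strand setting are not named there. Estimated counts are not in the table, so depth was estimated from the steps of low FPKM values, of which 68.6% to 76.3% lay within 0.1 fragment of a whole number, where chance gives 20%, too few for a count test.

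Of 24340 rows, 1306 short RNA rows and 2 failed estimates (Alb and Apoe, listed at 0 in some or all 6 h libraries) were left out. Genes with at least 1 FPKM in at least 3 libraries (10045) were tested on log2(FPKM + 1) with limma 3.58.1 in R 4.3.3: group means over all 12 libraries, empirical Bayes with a mean-variance trend, Benjamini-Hochberg adjustment over all tested genes and a threshold of 0.05. Changes are on the log2(FPKM + 1) scale, which understates those of low genes. The fit was tested on simulated data. Python 3.11.15 with numpy 2.4.6, pandas 2.3.3 and matplotlib 3.10.9 served for tables and plots. Alternatives were pseudocounts of 0.1 and 0.25, no filter or 5 FPKM, upper quartile, median ratio and quantile scaling, only the groups compared, sample weights, robust fitting, no trend, short RNA rows kept, the replicate number as a block, and each library left out.

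All 40 members were described, with genes of neighbouring lists named as examples. The members and lists were chosen with earlier results of these data known. Promoters came from RefSeq (GRCm38.p6). The overlap of near-identical genes was taken from shared 50-base words of GENCODE transcripts, in place of protein identity, which was not analysed here.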

Additional observations from a re-analysis of the deposited data

How the results depend on the processing

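Depth differed between the times, replicates were 3 a group, and FPKM carry no counts, which limits low genes such as Abcd2 and Cpt1b. The median change of the members stayed negative with each library left out: from -0.77 to -0.38 between the waters at 6 h, from -0.22 to -0.11 at 0 h, from -1.05 to -0.60 with time on PPA water, from -0.44 to -0.30 with time on plain water and from -0.67 to -0.25 for the interaction. Between the waters at 6 h, Crot ranged from -0.559 without PPA_6h_5 to 0.025 without PPA_6h_1, and Abcd2 from -0.324 without PPA_6h_2 to 0.162 without PPA_6h_1, with 0.052 without CTL_6h_2. The causes were not tested, except that fewer libraries were fitted where some were left out.

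Members called with each library left out ranged from 1 to 32 between the waters at 6 h, were 0 at 0 h throughout, ranged from 18 to 37 with time on PPA water, from 6 to 20 on plain water and from 0 to 2 for the interaction. Over all genes the ranges were 3 to 818, 1 to 5, 2007 to 3202, 1829 to 2765 and 0 to 44. Between the waters at 6 h, 1 member was called and none with only the groups compared or with the replicate block, but 40 with sample weights. Those weights were estimated without convergence, and 1 library, CTL_6h_2, had a weight of 6.295 while the lowest was 0.318. The weights also gave 17 members on plain water, of which 1 was higher, and 4 for the interaction. Of all genes, 14 were called between the waters at 6 h, against 2 with a pseudocount of 0.1 and 2 with 0.25, 5 with no filter, 0 with only the groups compared, 3634 with weights, 8 with robust fitting, 5 with no trend, 1 with the block and 4 with short RNA rows kept. At 0 h 3 were called, against 6 with a pseudocount of 0.1, 1 with no filter, 9 with only the groups compared and 10 with weights. With time on plain water 2703 were called, against 4270 with weights. For the interaction 1 was called, against 520 with weights and 0 with upper quartile scaling, quantile normalization, the replicate block or short RNA rows kept. At an unadjusted p under 0.05 in limma, 8 members passed the interaction, against 9.26% of all genes, and 2 the comparison of waters at 0 h, against 6.79%.

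The replicate numbers do not pair the samples: the deviations of 9 same-numbered pairs correlated at r from -0.282 to 0.086, none over 0.1. With the number as a block, 21 members were called with time on PPA water, all lower, where 913 of all genes fell, and 15 on plain water, all lower, where 875 of all genes fell.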
